A study of Mus musculus with 2 samples.

Results

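The mitochondrial genome messenger RNAs described here are 10 of the 13 protein-coding genes that the mouse mitochondrial chromosome carries, namely mt-Nd1, mt-Nd2, mt-Nd4, mt-Nd5, mt-Nd6, mt-Co1, mt-Co2, mt-Co3, mt-Atp6 and mt-Cytb, set within 14450 genes that had at least 1 tag of their own. They were measured by digital gene expression (DGE) tag profiling, in which polyadenylated RNA is caught on oligo(dT), its cDNA is cut by NlaIII at CATG, and MmeI releases a tag of CATG plus the 17 bases after it. A gene was given the sense tags that matched its transcripts with at most 1 mismatch and matched no other gene. Only 5 of the 10 genes had such a tag. Levels are in tags per 1000000 clean tags (TPM) and count tagged molecules, so they are not divided by gene length.

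GC-1spg is a line of mouse cells made with the plasmid pSV3-neo from type B spermatogonia of a donor aged 10 days, and the labels place it between these cells and primary spermatocytes. GC-2spd(ts), here GC-2spd, is a mouse line made with the SV40 large T antigen from spermatocytes of a donor aged 6 weeks. Its labelled stage is premeiotic. Both were grown in DMEM with 10% FBS, and 1 library was sequenced for each, from 1 transformed line each, so differences lack a replicate check and the tests set 2 libraries, not cell types, against each other. Donor age, the transforming construct and the labelled stage cannot be told apart. The libraries held 5072149 (GC-1spg) and 4726808 (GC-2spd) clean tags, with no tag below 2 copies. All intervals are 95% exact intervals and cover counting error only, since PCR copies are not separate molecules.

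The mitochondrial genome is copied into long RNAs that span many genes, from both strands. Excision of the tRNAs that lie between the coding regions frees most messenger RNAs, which then receive a short poly(A) tail, and in several of them that tail completes the stop codon. All members but mt-Nd6 are read from the same strand, written plus here. The proteins are core subunits of the respiratory chain: the Nd genes encode parts of complex I, mt-Cytb of complex III, mt-Co1, mt-Co2 and mt-Co3 of complex IV, and mt-Atp6 of the ATP synthase, complex V. Copies of mitochondrial DNA also sit in the nuclear genome, where most are annotated as pseudogenes, and a short tag cannot always tell such a copy from its source.

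The tags that carry the results are those at the last CATG before each 3′ end, which a complete digest would leave on the bead. They are printed 5′ to 3′ with the CATG in capitals, and all lie on the plus strand of the mitochondrial chromosome of GRCm38 within coding sequence.
mt-Nd2, chrM:4410-4430: CATGaggaggacttaaccaaa
mt-Co1, chrM:6813-6833: CATGgctgccctccaccatat
mt-Co2, chrM:7497-7517: CATGagcagtcccctccctag
mt-Co3, chrM:9322-9342: CATGatactgacattttgtag
mt-Nd4, chrM:11236-11256: CATGatgactgatagcaagtc
mt-Nd5, chrM:13189-13209: CATGatttttaaaaaccacag
mt-Cytb, chrM:14545-14565: CATGaggacaaatatcattct

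A further 3 tags are shown because they hold much of the signal and belong to no sense transcript of the annotation. The first starts at the last CATG of mt-Atp6 and ends in a run of A, capitalised here, that the genome does not encode. The second lies on the plus strand between the annotated ends of mt-Nd5 and mt-Cytb, opposite the tRNA gene mt-Te. The third is the minus-strand tag that leaves the same CATG as the first.
mt-Atp6 with tail, chrM:8593-8607 and tail: CATGataatacataaAAAAAA
downstream of mt-Nd5, chrM:14104-14124: CATGaaaaatcatcgttgtaa
minus strand of mt-Atp6, chrM:8576-8596: CATGtagatataggcttacta

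Neither mt-Nd1 (ENSMUSG00000064341.1, chrM:2751-3707, plus strand) nor mt-Nd6 (ENSMUSG00000064368.1, chrM:13552-14070, minus strand) has a CATG in its 957 or 519 bases. As annotated, these genes could therefore give no tag whatever their level, and the gene sums say nothing of them. RNA that runs past an annotated end could still give a tag. Minus-strand tags beyond the end of mt-Nd6, such as chrM:13172-13192 with 162 and 130 copies, were counted as antisense to mt-Nd5. Whether they came from mt-Nd6 RNA was not tested. The annotated mt-Nd4l (chrM:9877-10173), one of the small complex I subunits, has no CATG either. Its end overlaps the start of mt-Nd4 (chrM:10167-11544), so the tags of mt-Nd4 would also count RNA that carries both genes. How much of the mt-Nd4 count is such RNA was not tested.

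Under the rule of tags with 1 gene only, mt-Nd2 and mt-Nd4 of complex I were the most counted. mt-Nd2 (ENSMUSG00000064345.1, chrM:3914-4951) had 5076 tags in the GC-1spg library and 8263 in the GC-2spd library, or 1001 and 1748 TPM, a log2 ratio of GC-2spd over GC-1spg of 0.80 (interval 0.75 to 0.86). mt-Nd4 (ENSMUSG00000064363.1, chrM:10167-11544) had 4354 and 5975 tags, 858 and 1264 TPM, a log2 ratio of 0.56 (0.50 to 0.62). Both were higher in the GC-2spd library by far more than counting error, and both stayed under a 2-fold difference. In such bulk counts fewer cells of a kind, fewer mitochondria per cell and less RNA per mitochondrion cannot be told apart. mt-Nd5 (ENSMUSG00000064367.1, chrM:11742-13565) had 543 and 649 tags, 107 and 137 TPM, a log2 ratio of 0.36 (0.19 to 0.53).

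The other 2 members with tags of their own were lower or level in GC-2spd. mt-Co1 (ENSMUSG00000064351.1, chrM:5328-6872), the catalytic core of complex IV, had 860 and 755 tags, 170 and 160 TPM, a log2 ratio of -0.09 (-0.23 to 0.06, which holds 0). mt-Cytb (ENSMUSG00000064370.1, chrM:14145-15288) had 67 and 39 tags, 13.2 and 8.25 TPM, a log2 ratio of -0.68 (-1.29 to -0.09). These sums left out most of the tags of both genes, which nuclear copies share.

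A gene was called when the two-sided Audic-Claverie test, adjusted by Benjamini-Hochberg over all 14450 genes, gave an FDR of at most 0.001 with at least a 2-fold difference. Of the 5 members with tags 0 were called, beside 19.5% of all genes tested (11.7% higher and 7.84% lower in GC-2spd). The FDR itself was 2.9e-219 for mt-Nd2, 2.45e-83 for mt-Nd4, 7.56e-05 for mt-Nd5, 0.04 for mt-Cytb and 0.337 for mt-Co1 in that test. Thus 3 members passed the FDR alone and were kept out by the fold. With TMM scaling the FDR of mt-Nd5 was 0.0594. In edgeR's exact test with an assumed biological coefficient of variation of 0.1 the FDR was 0.000613 for mt-Nd2, 0.0235 for mt-Nd4 and 0.22 for mt-Nd5, and with one of 0.2 it was 0.181 for mt-Nd2. Among the 7100 genes with at least 100 tags over both libraries, the ratio of mt-Nd2 exceeded that of 76.9%, mt-Nd4 66.8%, mt-Nd5 57.6%, mt-Co1 35.5% and mt-Cytb 14.9%.

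Almost all of these tags matched the reference exactly. Exact tags made 5011 of 5076 copies of mt-Nd2 in the GC-1spg library and 8164 of 8263 in the GC-2spd library, and 1-mismatch tags the remaining 65 and 99. For mt-Nd4 the 1-mismatch tags held 61 and 64 copies, for mt-Co1 9 and 8, for mt-Nd5 4 and 7, and for mt-Cytb 5 and 0. Over 22 mitochondrial tags with at least 1000 copies in both libraries together, the single most frequent 1-mismatch form of a tag never passed 1.32% of it. The reference form was thus the major one of each of these tags in both lines, with no second form near its level. A rarer exception stood on the minus strand of mt-Cytb, where the reference tag had 185 copies in the GC-1spg library and 200 in the GC-2spd library and a tag with T19A, counted from the C of CATG and giving a run of A at its end, had 74 and 189.
mt-Cytb minus strand, chrM:14416-14436: CATGaaggaataagcaaataa
its 1-mismatch form: CATGaaggaataagcaaaaaa

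Sharing with nuclear copies decided what the rule could count. Of 40 sense CATG sites in the members, 23 gave a listed tag that also occurs in a nuclear gene. These held 88.4% of the 92470 exact sense tags of GC-1spg and 82.3% of 87360 in GC-2spd. The 2 mt-Co3 sites unlisted in both libraries are not among the 23, although all 8 sites of the copy Gm28437 are shared with the mitochondrial chromosome. Every sense tag of mt-Co2, mt-Co3 and mt-Atp6 was shared. So were all tags of mt-Nd3, a complex I subunit outside the list.

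The nuclear genes that share any tag with the mitochondrial chromosome were 14, and 6 of them stand in a row on the minus strand of chromosome 1 of GRCm38, from 24611535 to 24616197, in the order Gm28439, Gm28438, Gm28437, Gm10925, Gm28661 and Gm29216. Each is annotated as an unprocessed pseudogene, and 4 of the 6 show no base different from the mitochondrial chromosome over their whole length. Their 20 CATG sites all give mitochondrial tags, so none of these copies can be seen apart from its source by a tag. Other copies share some of their sites, such as Gm11410 on chromosome 4 with mt-Cytb, Gm4076 on chromosome 13 with mt-Nd5, and Gm13341 and Gm13340 on chromosome 2 with mt-Co2 and mt-Co1. Gm11512 on chromosome 11, AC125122.2, Gm43841 on chromosome 5 and Gm20594 on chromosome 6 complete the set.

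Sites at which a nuclear copy differs from the mitochondrial sequence give a tag that the exact mitochondrial sequence does not. There were 14 such sites in 5 of the nuclear genes, and the tags of 4 of these genes were unlisted in both libraries. Gm13340 alone had a listed tag of this kind, with 12 copies in the GC-1spg library and 2 in the GC-2spd library. It is 1 base away from the last mt-Co1 tag, which had 22875 and 3598. The 1-mismatch forms of that mt-Co1 tag added up to 819 and 95 copies, the most frequent reaching 248 and 27. Whether the 12 and 2 copies came from Gm13340 was not tested. The chromosome 1 copies have no site of this kind, and their part in the shared tags was not tested.

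With every exact sense tag of a mitochondrial gene given to that gene whether or not a nuclear copy shares it, beside its 1-mismatch tags, 8 of the 10 members had values. mt-Co3 (ENSMUSG00000064358.1, chrM:8607-9390) then had 28800 tags in the GC-1spg library and 38108 in the GC-2spd library, 5678 and 8062 TPM, a log2 ratio of 0.51 (0.48 to 0.53). mt-Co2 (ENSMUSG00000064354.1, chrM:7013-7696) had 14953 and 14996 tags, 2948 and 3173 TPM, a log2 ratio of 0.11 (0.07 to 0.14). mt-Co1 had 25273 and 7255 tags, 4983 and 1535 TPM, a log2 ratio of -1.70 (-1.74 to -1.66). The 3 core subunits of complex IV thus differed between the libraries in both directions, and mt-Co1 became the only member called, lower in GC-2spd, beside 7.85% of genes called lower under this assignment.

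The remaining members moved less. mt-Cytb had 9714 and 9137 tags, 1915 and 1933 TPM, with a log2 ratio of 0.01 (-0.03 to 0.05), so the deficit seen in its 67 and 39 private tags was not present in its whole count. mt-Nd5 had 2858 and 2853 tags, for a log2 ratio of 0.10 (0.02 to 0.17). mt-Nd4 had 4704 and 6298 tags, for a log2 ratio of 0.52 (0.47 to 0.58), and mt-Nd2, which shares no tag, was as before. Intervals lay above 0 for 5 members, below 0 for 2 and held 0 for 1, and the median log2 ratio of the 8 was 0.10, beside 0.13 over all genes tested (with 0.5 tags added). With TMM scaling, which lowers every log2 ratio by 0.17, mt-Nd5 and mt-Co2 (each -0.07) and mt-Cytb (-0.16) came below 0.

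**Figure D1:**
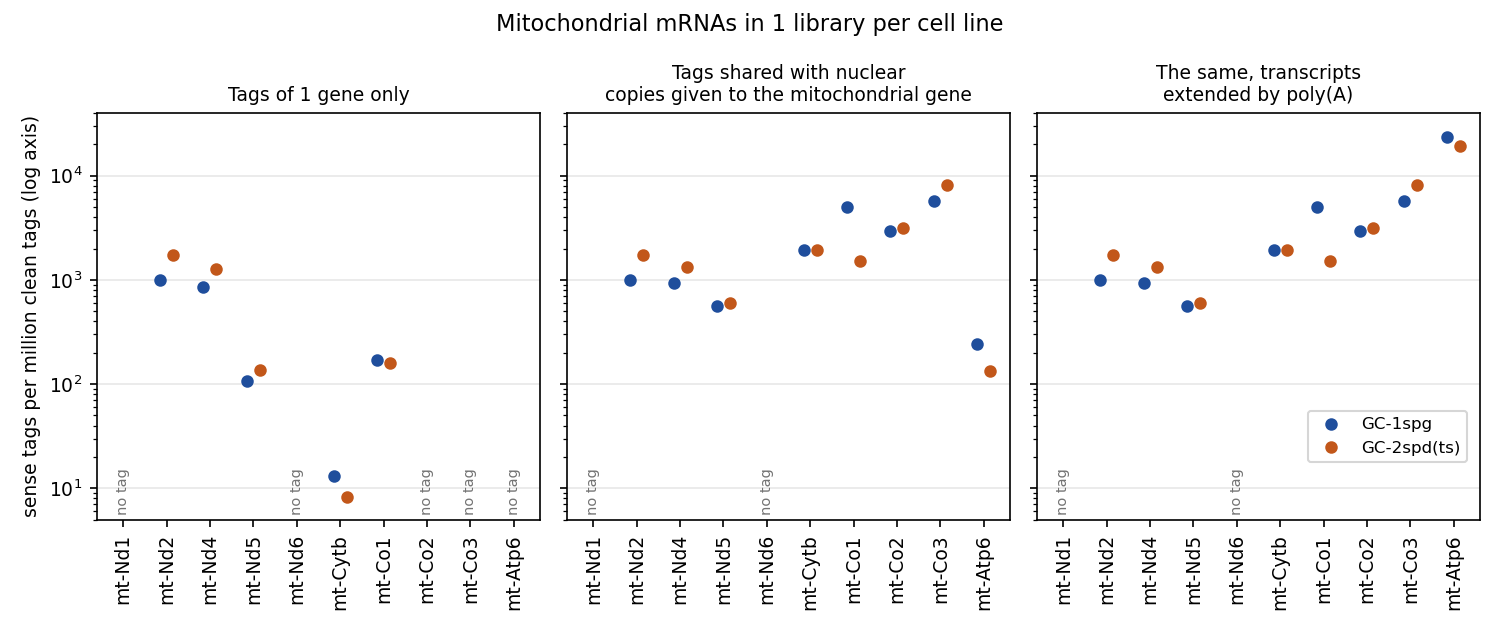
Sense tags in TPM (log axis) of the 10 members in the GC-1spg and GC-2spd libraries, 1 point per library, under 3 ways of assigning tags. mt-Co2 and mt-Co3 have no tag of their own in the left panel, and mt-Atp6 goes from 244 and 133 TPM in the middle panel to 23518 and 19455 TPM in the right panel.

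mt-Atp6 (ENSMUSG00000064357.1, chrM:7927-8607) had most of its tags at the very end of the transcript. Its annotated transcript holds 1 CATG with 17 bases after it, at chrM:8126-8146, which gave 1236 and 628 tags, 244 and 133 TPM, a log2 ratio of -0.88 (-1.02 to -0.74). A second CATG lies only 15 bases from the annotated end, so a tag from it must run into whatever follows. The tag printed above, those 15 bases and 6 further A, had 115739 copies in the GC-1spg library and 89805 in the GC-2spd library, or 22819 and 18999 TPM.

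That tag was the most frequent of all 121656 distinct tags in GC-1spg, as it was of all 118173 in GC-2spd, and held 2.28% (2.27 to 2.29) and 1.90% (1.89 to 1.91) of the clean tags. It matches no annotated transcript, and with 17 A added to the end of every transcript it matched mt-Atp6 alone. This tag was looked for after the values had been seen. If the RNA instead ran on into mt-Co3, which starts at the last base of mt-Atp6, the same CATG would give the tag below, which had 0 copies in the GC-1spg library and 3 in the GC-2spd library.
mt-Atp6 running into mt-Co3, chrM:8593-8613: CATGataatacataatgaccc
tail begun 1 base later, chrM:8593-8608 and tail: CATGataatacataatAAAAA

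The form that a tail begun 1 base later would give had 129 and 119 copies. It differs from the tailed tag at 1 base, and the most frequent 1-mismatch form of that tag reached 176 and 135 copies. Whether it marks a later tail or a misread tailed tag was not tested. The last 2 letters of mt-Atp6 are themselves A, so the sequence does not fix at which of them the tail starts. Tags 1 base away from the tailed tag, that form included, added up to 2831 and 1853 copies. With the tail included mt-Atp6 had 119289 and 91962 tags, 23518 and 19455 TPM, and a log2 ratio of -0.27 (-0.29 to -0.26), against -0.88 from the upstream site.

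With shared and tailed tags counted, the 10 members together held 4.15% of clean tags in the GC-1spg library and 3.78% in that of GC-2spd, a log2 ratio of -0.13 (-0.14 to -0.13). Under the rule of tags with 1 gene only they held 0.215% and 0.332%, a log2 ratio of 0.63 (0.59 to 0.66). With shared tags but no tail they held 1.83% and 1.85%, a log2 ratio of 0.02 (0.01 to 0.03). The direction of the sum thus followed the assignment of tags.

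The order of levels in TPM was mt-Atp6, mt-Co3, mt-Co1, mt-Co2, mt-Cytb, mt-Nd2, mt-Nd4 and mt-Nd5 in GC-1spg, from 23518 TPM down to 563. In GC-2spd it was mt-Atp6, mt-Co3, mt-Co2, mt-Cytb, mt-Nd2, mt-Co1, mt-Nd4 and mt-Nd5, from 19455 TPM down to 604. The orders differed in the place of mt-Co1, at place 3 in GC-1spg and at place 6 in GC-2spd. No 2 neighbours in either order had intervals that met, for counting error alone. These orders leave out the tag downstream of mt-Nd5, with which mt-Nd5 had 2862 and 1255 TPM. That level lies between mt-Co2 (2948) and mt-Cytb (1915) in GC-1spg and is still the last in GC-2spd. The place of mt-Nd5 would then differ too, and whether its interval meets a neighbour's was not checked.

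Summed by complex on the same scale, complex I members had 2492 TPM in the GC-1spg library and 3684 in the GC-2spd library, a log2 ratio of 0.56 (0.53 to 0.60), from 3 of its 5 members. The tag downstream of mt-Nd5, described further on, is not in that sum, and with it complex I had 4790 and 4335 TPM, a log2 ratio of -0.14 (-0.17 to -0.12), so the direction turned. Complex III, that is mt-Cytb, had 1915 and 1933 TPM. Complex IV had 13609 and 12770 TPM, a log2 ratio of -0.09 (-0.11 to -0.08) that joins a lower mt-Co1 to a higher mt-Co3. Complex V, that is mt-Atp6, had the -0.27 given above. With TMM scaling mt-Cytb went to -0.16 and mt-Atp6 to -0.45, while mt-Nd2 (0.63), mt-Nd4 (0.35) and mt-Co3 (0.33) stayed above 0 and mt-Co1 (-1.87) below.

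**Figure D2:**
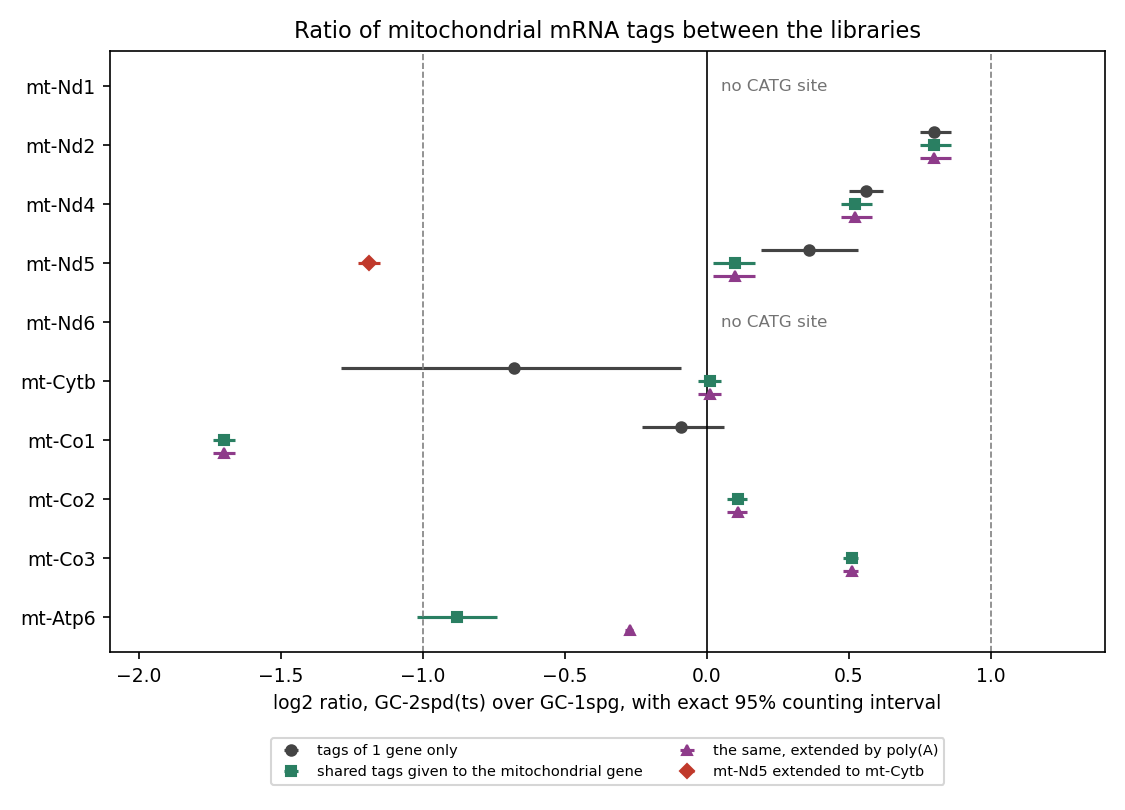
Log2 ratio of GC-2spd over GC-1spg for each member, with exact 95% counting intervals as bars, under 3 assignments of tags, and for mt-Nd5 also with its transcript extended to mt-Cytb. Dashed lines mark a 2-fold difference, which only mt-Co1 (-1.70 with shared tags) and the extended mt-Nd5 (-1.19) pass.

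The lower count of mt-Co1 in GC-2spd came from 1 of its 8 CATG sites. At the site nearest the annotated 3′ end, 60 bases before it, the tag had 22875 copies in the GC-1spg library and 3598 in the GC-2spd library. These were 4510 and 761 TPM, the 9th most frequent tag of the first library and the 126th of the second. The log2 ratio there was -2.57 (-2.62 to -2.52). The 7 upstream sites together went the other way, with 2389 and 3649 tags and a log2 ratio of 0.71 (0.64 to 0.79).

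Among those upstream sites of mt-Co1 the tag at chrM:6093-6113 was the most frequent, with 820 copies in the GC-1spg library and 1989 in the GC-2spd library, a log2 ratio of 1.38 (1.26 to 1.50). The site at 6550 had 197 and 384 copies, a log2 ratio of 1.06 (0.81 to 1.32). At the other 5 upstream sites the log2 ratio lay between -0.18 and 0.33. The last site held 90.5% (90.2 to 90.9) of mt-Co1 sense tags of GC-1spg and 49.6% (48.5 to 50.8) in GC-2spd, a log2 odds ratio of -3.28 (-3.37 to -3.19).
mt-Co1, chrM:6093-6113: CATGtagttacttactactcc

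In the members named next the last site held most of the sense tags in both libraries. For mt-Co3 it held 97.8% and 98.5% of sense tags, for mt-Co2 97.0% and 96.4%, and for mt-Cytb 98.0% and 98.1%. For mt-Nd2 the shares were 91.9% and 95.3%, and for mt-Nd4 88.7% and 92.4%. The site of mt-Cytb is 744 bases and that of mt-Nd2 542 bases from the annotated end, so a high share at the last site was found near and far from the tail.

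In mt-Nd2 and mt-Nd4 the higher count in GC-2spd stood at the last site, and the interval of the sum of the sites before it held 0. The last site of mt-Nd2 had 4607 and 7777 copies, a log2 ratio of 0.86 (0.80 to 0.91), while its 2 upstream sites had 404 and 387 in sum, a log2 ratio of 0.04 (-0.17 to 0.24). Those 2 sites went opposite ways, 0.32 (0.07 to 0.57) at 4161 and -0.60 (-0.99 to -0.22) at 4308. The last site of mt-Nd4 had 4119 and 5759 copies, a log2 ratio of 0.59 (0.53 to 0.64), and its 7 upstream sites 524 and 475, a log2 ratio of -0.04 (-0.22 to 0.14). mt-Co3 showed the same split, with 0.52 (0.49 to 0.54) at the last site and -0.03 (-0.20 to 0.13) over the others. The log2 odds ratio of the last site between the libraries was 0.82 (0.61 to 1.03) for mt-Nd2, 0.63 (0.43 to 0.82) for mt-Nd4 and 0.55 (0.38 to 0.72) for mt-Co3.

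**Figure D3:**
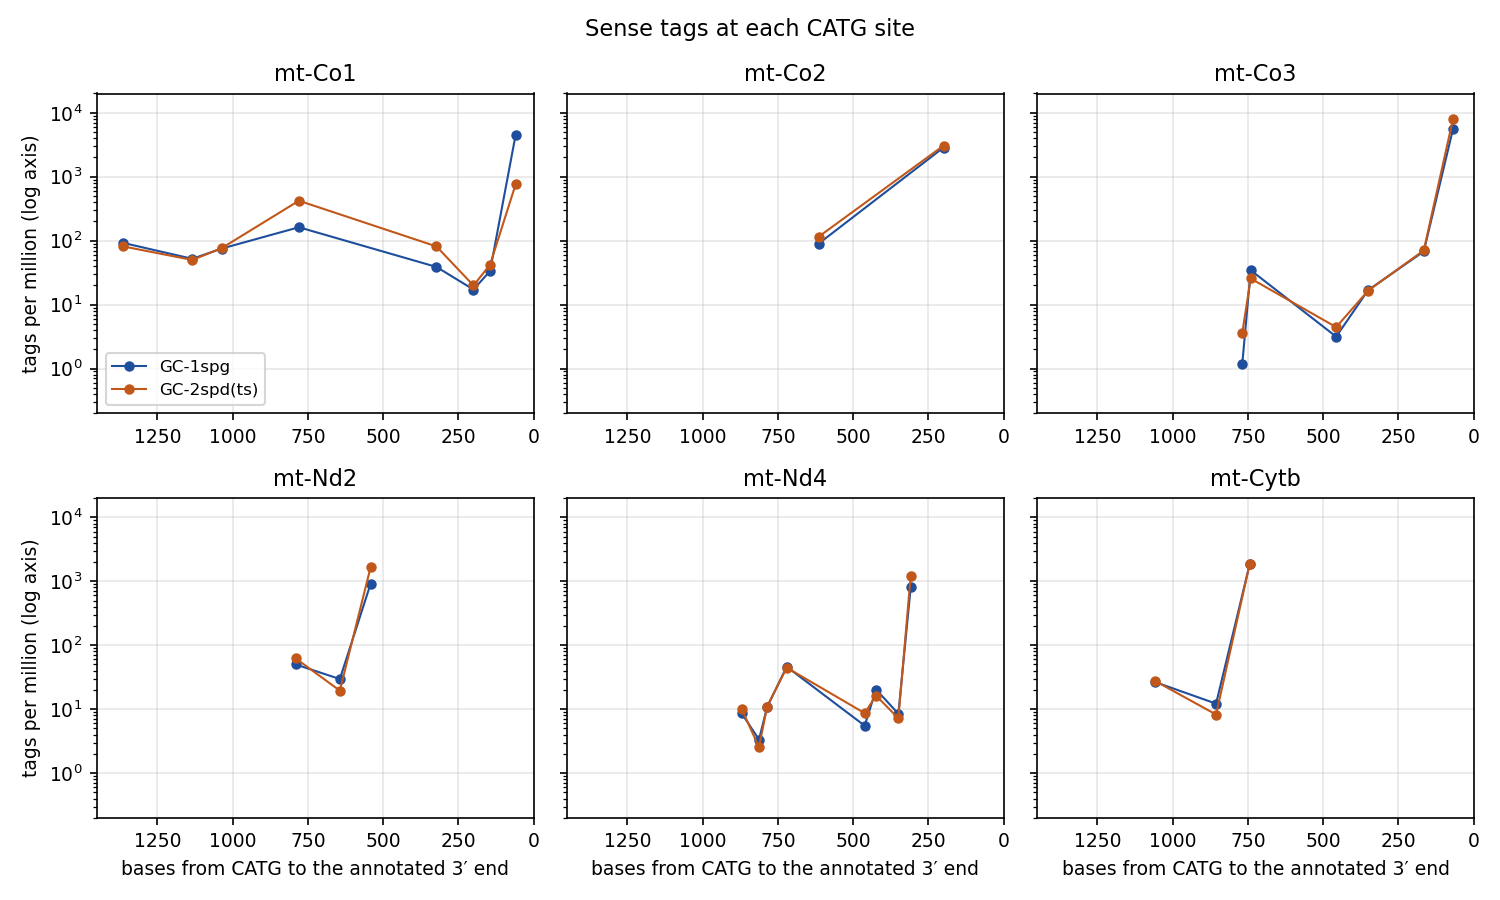
Sense tags in TPM (log axis) at each CATG site of 6 members, plotted by the distance in bases from the CATG to the annotated 3′ end, with 1 line per library, shared tags included and 2 unlisted sites of mt-Co3 not drawn. The last site is the highest point of both lines in each panel, and in mt-Co1 its level is 4510 TPM for GC-1spg against 761 TPM for GC-2spd while the site 780 bases from the end is higher in GC-2spd.

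mt-Nd5 is the one member whose messenger RNA is known to carry a long 3′ untranslated region, which lies opposite mt-Nd6 and reaches towards mt-Cytb. The annotation ends mt-Nd5 at its stop codon. Within the annotated gene, the last site held 73.0% (71.3 to 74.6) and 71.6% (69.9 to 73.3) of sense tags, the lowest shares among the members apart from mt-Co1 in GC-2spd.

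The plus strand between mt-Nd5 and mt-Cytb holds 1 CATG, 539 bases after the annotated end of mt-Nd5 and 41 bases before mt-Cytb. Its tag had 11659 copies in the GC-1spg library and 3078 in the GC-2spd library, 2299 and 651 TPM, a log2 ratio of -1.82 (-1.88 to -1.76). That is more than the 2858 and 2853 tags of the whole annotated mt-Nd5. Added to mt-Nd5, it gave 14517 and 5931 tags, 2862 and 1255 TPM, and turned the log2 ratio from 0.10 to -1.19 (-1.23 to -1.15), a choice made after the values were seen. The tag then held 80.3% (79.7 to 81.0) of mt-Nd5 tags of GC-1spg and 52.0% (50.7 to 53.2) in GC-2spd.

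In both mt-Co1 and the extended mt-Nd5 the last site was lower in GC-2spd and the sum of the sites before it was not. The 7 sites before it in the extended mt-Nd5 had 2854 and 2846 tags, for a log2 ratio of 0.10 (0.02 to 0.17). Single sites of mt-Nd5 went both ways, with 211 and 148 copies at 12122 and 233 and 166 at 12853, but 191 and 379 at 12433. The last CATG lay 60 bases before the annotated end of mt-Co1 and, for the extended mt-Nd5, 41 bases before mt-Cytb. The ends of the RNAs themselves were not measured for these 2 genes. mt-Co3, whose last CATG is 69 bases from its annotated end, and mt-Atp6, at 15 bases, did not show this split, with 0.52 and -0.26 (-0.28 to -0.25) at the last site.

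Tags from the minus strand were counted apart. The mitochondrial chromosome was read up to base 15422, less the 57 bases outside annotated transcripts. On the plus strand 52 CATG sites gave 119139 exact tags in the GC-1spg library and 105899 in the GC-2spd library. The log2 ratio was -0.07 (-0.08 to -0.06), not counting the tailed tag of mt-Atp6. The minus strand gave 35337 and 16300 tags, for a log2 ratio of -1.01 (-1.04 to -0.99). The minus-strand total was thus about 2-fold lower in GC-2spd, while this plus-strand total was nearly level. The 2 totals are not alike at the end of mt-Atp6. There the minus-strand tag, with 19894 and 6637 copies, is counted and the tailed plus-strand tag of the same CATG, with 115739 and 89805, is not.

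The largest part of the minus-strand counts stood at the end of mt-Atp6, where the tag printed above had 19894 copies in the GC-1spg library and 6637 in the GC-2spd library, 3922 and 1404 TPM, a log2 ratio of -1.48 (-1.52 to -1.44). It is cut at the same CATG as the tailed mt-Atp6 tag, of which it made 17.2% and 7.39%. The copy Gm10925 shares this minus-strand tag.

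Antisense tags over the other members, shared tags included, were fewer. Across the 8 sites of mt-Co1 they had 2949 and 803 copies, a log2 ratio of -1.78 (-1.89 to -1.66), and the most frequent one in GC-1spg, at chrM:6656-6676, had 1108 and 132. In GC-2spd the most frequent was the one starting at 6533, with 760 and 387. Over mt-Co2 they had 1619 and 880 copies, a log2 ratio of -0.78 (-0.90 to -0.66). Over mt-Nd4 they had 2010 and 2024, a log2 ratio of 0.11 (0.02 to 0.20), and over mt-Co3 1527 and 1427, a log2 ratio of 0.00 (-0.10 to 0.11). Antisense tags were thus not lower everywhere in GC-2spd.

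Under the rule, which keeps antisense tags that belong to 1 gene only, mt-Nd2 had 878 and 708 antisense tags, mt-Nd4 1101 and 534, mt-Nd5 568 and 432, mt-Co1 71 and 38, and mt-Cytb 83 and 79. For mt-Nd5 these were more than its 543 private sense tags in GC-1spg, and what part of them came from mt-Nd6 RNA was not tested. Nearly all of the antisense signal of mt-Co1, and all of that of mt-Co2, mt-Co3 and mt-Atp6, was in tags shared with nuclear copies.

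At the 10 CATG sites with at least 5000 plus-strand tags over both libraries, the minus-strand tag was the rarer one. At rarer sites this did not always hold, and at 4161 in mt-Nd2 the plus strand had 254 and 295 copies and the minus strand 304 and 294. The minus-strand tag was 1.61% and 1.67% of the plus-strand tag at the last site of mt-Co1, 1.92% and 1.16% at that of mt-Co3, and 0.515% and 0.68% at that of mt-Cytb. It reached 29.1% and 21.4% at the only site of mt-Nd3. At the site between mt-Nd5 and mt-Cytb it was 12.2% and 10.6%, with 1417 and 327 copies that are sense to mt-Te. At the last sites of mt-Co1 and mt-Cytb the share differed little between the libraries, whereas at those of mt-Atp6 and mt-Nd2 (9.31% and 3.16%) it was lower in GC-2spd.

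**Figure D4:**
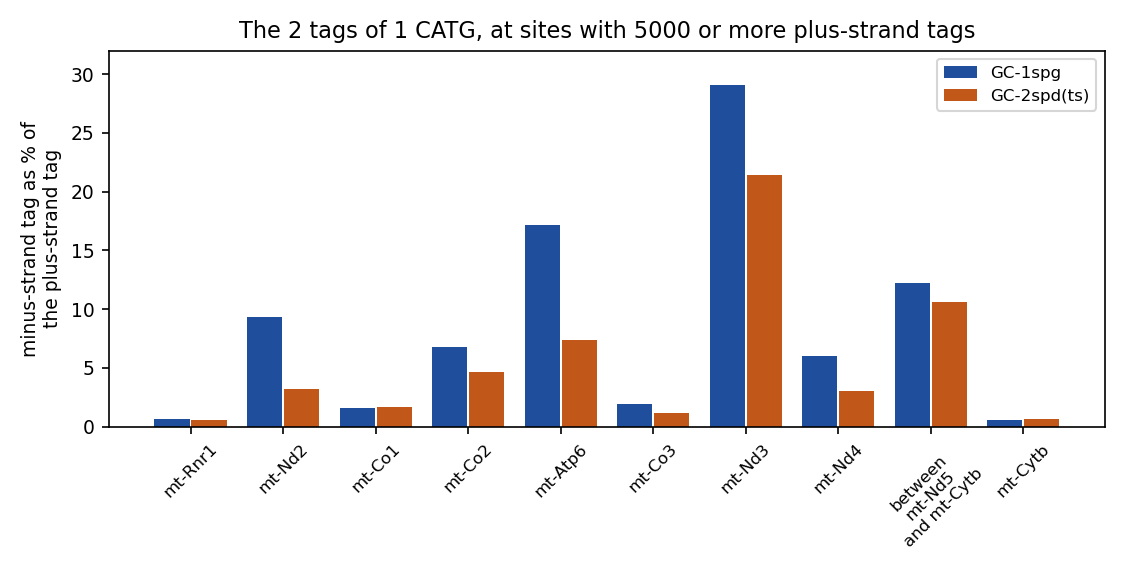
Minus-strand tags as a percent of the plus-strand tags cut at the same CATG, at the 10 sites with at least 5000 plus-strand tags over both libraries together, with 1 bar per library and genes in the order of the chromosome. Bars run from 0.515% at mt-Cytb in GC-1spg to 29.1% at mt-Nd3 in GC-1spg, and the bars of mt-Atp6 stand at 17.2% and 7.39%.

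The rest of the mitochondrial genome gave these values. mt-Rnr1, the small ribosomal RNA, had 3630 and 5716 tags of its own, 716 and 1209 TPM, a log2 ratio of 0.76 (0.70 to 0.82). mt-Rnr2, the large ribosomal RNA, had 248 and 490 tags, at a log2 ratio of 1.08 (0.86 to 1.31). It was called higher with an FDR of 5.37e-22 in the Audic-Claverie test. mt-Atp8, the small ATP synthase subunit whose gene overlaps that of mt-Atp6, had 178 and 87 tags, for a log2 ratio of -0.93 (-1.32 to -0.55). Its only site, at 7788, would be an upstream site of any RNA that carries both genes, so it need not measure a separate RNA, which was not tested. mt-Nd3, with shared tags, had 10779 and 8895 tags, 2125 and 1882 TPM, a log2 ratio of -0.18 (-0.22 to -0.13). With TMM scaling the ratio of mt-Rnr2 was 0.91 and that of mt-Atp8 -1.10.

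Nuclear genes that copy, transcribe, process and translate the mitochondrial genome, or build the respiratory chain with its products, were taken as 7 lists with 208 genes that had tags. Of these 16 were called higher in GC-2spd, or 7.69%, and 6 lower, or 2.88%, beside 11.7% and 7.84% of all genes. With TMM scaling the balance turned, to 10 higher and 12 lower. It turned over all genes tested too, from 1684 higher and 1133 lower to 1292 and 1443. The 208 genes had a median log2 ratio of 0.06, beside 0.13 over all genes tested, each with 0.5 tags added. Both shares were below those of all genes, and the difference was not tested. These values of all genes are also the background of each list that follows.

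Of 13 genes that maintain mitochondrial DNA, Top1mt, the mitochondrial topoisomerase, was called higher, with 20 and 57 tags and a log2 ratio of 1.61 (0.86 to 2.43). Dguok, a kinase that supplies deoxynucleotides, was called lower, with 104 and 47 tags and a log2 ratio of -1.04 (-1.57 to -0.53). Polg, the DNA polymerase and the most counted of the list, had 538 and 491 tags, for a log2 ratio of -0.03 (-0.21 to 0.15). The median of the list was -0.02.

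None of the 6 transcription genes with tags was called at the fold and FDR used. Polrmt, the RNA polymerase that copies the mitochondrial genome, had 137 and 234 tags, for a log2 ratio of 0.87 (0.56 to 1.19), with an FDR of 6.89e-08 in the Audic-Claverie test. Mterf3 had 91 and 155 tags, for a log2 ratio of 0.87 (0.49 to 1.26), and Mterf4 143 and 87, a log2 ratio of -0.62 (-1.02 to -0.22). Both belong to the family of mitochondrial termination factors.

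Of 21 RNA processing genes, 4 were called higher and 0 lower, with a median of 0.31, and the same counts held with TMM scaling. Rexo2, an oligoribonuclease, had 198 and 647 tags, for a log2 ratio of 1.81 (1.58 to 2.05). Hsd17b10, a subunit of the mitochondrial RNase P that frees the 5′ ends of tRNAs, had 62 and 210 tags, for a log2 ratio of 1.86 (1.45 to 2.29). Fastkd3, one of the FASTK family of mitochondrial RNA-binding proteins, had 23 and 81 tags, for a log2 ratio of 1.92 (1.24 to 2.65). Angel2 had 70 and 204 tags, for a log2 ratio of 1.64 (1.25 to 2.06). The share of 4 in 21 was above the 11.7% of all genes, and the difference was not tested.

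In the translation list 1 of 11 genes was called. Mtif2, an initiation factor, was lower with 67 and 25 tags, for a log2 ratio of -1.32 (-2.05 to -0.64). The elongation factors Tsfm, with 334 and 504 tags and a log2 ratio of 0.70 (0.49 to 0.90), and Gfm1, with 265 and 358 tags and 0.54 (0.30 to 0.77), were not called. Tufm had no tag of its own.

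Regulators of mitochondrial biogenesis gave 0 calls among 7 genes at the fold and FDR used, with a median of -0.03. Gabpa had 398 and 455 tags, for a log2 ratio of 0.29 (0.10 to 0.49), Nrf1 118 and 118, a log2 ratio of 0.10 (-0.28 to 0.48), and Esrra 138 and 72, a log2 ratio of -0.84 (-1.27 to -0.42). All 3 are transcription factors with targets among respiratory chain genes.

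Of 74 mitochondrial ribosomal protein genes with tags, 2 were called higher and 2 lower, beside 11.7% and 7.84% of all genes. The median was 0.02. Mrpl33 had 6745 and 1083 tags, for a log2 ratio of -2.54 (-2.63 to -2.44). Mrpl16 had 13 and 446 tags, for a log2 ratio of 5.20 (4.41 to 6.12), and Mrps28 98 and 194, a log2 ratio of 1.09 (0.73 to 1.45). With TMM scaling 1 gene of the list was called higher and 3 lower.

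Nuclear subunits of the respiratory chain showed 9 genes higher and 2 lower of 76, with a median of 0.10. The share higher was close to the 11.7% of all genes, and the share lower was below their 7.84%. Ndufa4, now assigned to complex IV, had 2772 and 745 tags, for a log2 ratio of -1.79 (-1.91 to -1.68). Atp5j, a subunit of the ATP synthase, had 1123 and 2149 tags, for a log2 ratio of 1.04 (0.93 to 1.14), and Ndufb7, of complex I, 206 and 1307, a log2 ratio of 2.77 (2.55 to 2.99). With TMM scaling 4 genes of the list were called higher and 5 lower.

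The cell types the labels name were compared with marker lists. Each of 12 germ cell markers, Ddx4, Dazl, Sycp3 and Stra8 among them, has at least 1 reference tag that no other gene holds, and none of them had such a tag in either library. For 1 such tag a true count of 0 allows up to 0.591 TPM in GC-1spg and 0.635 in GC-2spd. The limit here is looser, because single-copy tags had been dropped and an unlisted tag may have had 1 copy. It holds for each tag apart, and is no limit on transcripts that a tag of this kind does not represent. Of 10 fibroblast markers 8 had tags, 3621 and 2086 TPM in sum, and Thy1 and Lum had none. Col1a1 (2063 and 513 TPM), Fn1 (464 and 256) and Dcn (140 and 0.423) were lower in GC-2spd. S100a4 (764 and 1012 TPM), Col1a2 (119 and 192), Col5a1 (44.4 and 70.9) and Col3a1 (9.86 and 25.4) were higher, and Pdgfra (16.8 and 15.7) was nearly level. Of 6 Sertoli cell markers 4 had tags and went both ways. Wt1 had 620 and 0 copies and Amh 5 and 0, but Gata4 had 29 and 138 and Sox9 29 and 46. Of 5 peritubular markers all had tags in at least 1 library, mostly Acta2 at 9.86 and 117 TPM. Of 6 Leydig cell markers 2 had tags, with 4 and 5 copies in all. The germ cell identity in the labels was therefore not visible in these lists. Germ cell genes outside the lists were not surveyed. One of them, the synaptonemal complex gene Syce2, had 5 and 821 copies, 0.986 and 174 TPM, a log2 ratio of 7.46, and was called higher in GC-2spd. The part that differences in cell type play in the mitochondrial values was not tested.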

How the data were processed

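The GC-1spg and GC-2spd lines gave 1 DGE library each. After dropping tags of adaptor sequence, low quality or a single copy, the authors deposited the count of each remaining tag as its copy number. The TPM that the authors deposited beside it is that count over the library total, per 1000000. No source used here names the program with which the authors matched tags.

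Tags of 21 bases were taken at every CATG of the 141767 transcripts of GENCODE M21 (GRCm38), on both strands: exact matches were taken first, and otherwise 1 mismatch was allowed outside the CATG. A tag whose best matches belonged to 1 gene was counted for that gene, sense and antisense apart. The mitochondrial chromosome was rebuilt from its 37 annotated genes, leaving 57 bases between them unread, and the control region beyond base 15422 was not analysed here. The depth was 5072149 (GC-1spg) and 4726808 (GC-2spd) tags, so that 1 copy is 0.197 and 0.212 TPM.

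Ratios were scaled to clean tags with exact conditional binomial (Clopper-Pearson) intervals at 95%. Site shares have exact binomial intervals, and their comparison the conditional odds ratio. The two-sided Audic-Claverie test was adjusted by Benjamini-Hochberg over 14450 genes, and genes past an FDR of 0.001 with a log2 ratio of 1 or more in size were called, using 0.01 TPM in place of a level of 0. A quasi-likelihood fit in edgeR needs replicates and was not run. Intervals, tests and figures came from Python 3.11.15 (scipy 1.17.1, numpy 2.4.6, matplotlib 3.10.9, pandas 2.3.3), and TMM factors and exact tests from edgeR 4.0.16 in R 4.3.3.

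The members and lists were chosen with earlier results of these data known. Named are all members, the other mitochondrial protein and ribosomal RNA genes, nuclear genes that share a tag, and in each list every called gene or, where fewer than 3 were called, the most counted up to 3. For ribosomal proteins and respiratory chain subunits only the 3 called genes with the most tags are named. The marker genes named, Syce2, the translation genes beyond this rule (Tufm) and the tRNA gene mt-Te were chosen after their values were seen. Alternatives were exact matching, pseudogenes left out, mitochondrial genes first, sense matches preferred, both strands together, the last CATG only, the longest transcript, TMM scaling, scaling to unambiguous sense tags, at least 10 tags, 0.5 tags added, an exact binomial test, and edgeR's exact test at an assumed biological coefficient of variation (BCV) of 0.1, 0.2 or 0.4. Extension by 17 A and of mt-Nd5 to mt-Cytb was added after seeing the data.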

Additional observations from a re-analysis of the deposited data

Results flagged for a closer look

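Each of 3 tags outside the gene sums of the rule was well above the 3 copies that a count of 0 allows, in both libraries. The 3 tags were picked for their high counts, so passing that floor is no test of them. No control sample exists to set them against. The tailed tag at the end of mt-Atp6 had 115739 copies in the GC-1spg library and 89805 in that of GC-2spd. The minus-strand tag at the same CATG had 19894 and 6637 copies. The plus-strand tag between mt-Nd5 and mt-Cytb had 11659 and 3078 copies. The first of these lies on the mt-Atp6 transcript with a tail, the second is shared with Gm10925, and the third matches the opposite strand of mt-Te.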

How the results depend on the processing

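The results rest on how tags shared with nuclear copies and tags that reach the poly(A) tail are counted. No paired analysis was possible because each line has 1 library. The number of members called higher was 0 under every alternative, and the number called lower was 0 except for 1 (mt-Co1) with pseudogenes left out, with mitochondrial genes first, and with the latter and poly(A). The log2 ratio of the summed tags, 0.63, fell to 0.01 with pseudogenes left out and 0.02 with mitochondrial genes first, and reversed to -0.17 with poly(A) and -0.13 with both. It lay between 0.40 and 0.63 under the other alternatives. The share of clean tags, 0.215% and 0.332%, moved to 1.86% and 1.87% with pseudogenes left out, 1.83% and 1.85% with mitochondrial genes first, 0.268% and 0.370% with both strands, 0.364% and 0.481% at the last CATG only, 2.54% and 2.26% with poly(A), and 4.15% and 3.78% with mitochondrial genes first and poly(A). mt-Co1 went from -0.09 to -1.72 with pseudogenes left out and -1.70 with mitochondrial genes first, and had no value at the last CATG only, since that tag is shared. mt-Cytb, -0.68, reversed to 0.01 with pseudogenes left out, with mitochondrial genes first and with the latter and poly(A), and to 0.02 at the last CATG only. mt-Nd5, 0.36, was 0.10 with mitochondrial genes first and reversed to -1.19 with its transcript extended as well. mt-Co2, 0.11 with shared tags, reversed to -0.07 with TMM scaling, and mt-Atp6 with shared tags reached -1.05 there. The ratios of mt-Nd2 (0.63 to 0.86) and mt-Nd4 (0.36 to 0.58) kept their direction and stayed under 2-fold under each alternative run. Pathway genes called higher, 16, became 10 with TMM scaling and 3 and 1 in edgeR's exact test at a BCV of 0.2 and 0.4. Those called lower, 6, became 12 with TMM scaling and 3, 3 and 0 at a BCV of 0.1, 0.2 and 0.4. Over all genes tested, TMM scaling took the calls from 1684 higher and 1133 lower to 1292 and 1443. Changes under tag assignment follow from which tags are counted. Sharing with nuclear copies leaves mt-Cytb few private tags (67 and 39), and single libraries limit every comparison.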
